A study of Sus scrofa with 22 samples.

Results

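Small-intestinal RNA of 22 piglets was examined for genes that responded differently to 2 chemotherapy regimens. The quantity of interest is the change after busulfan with cyclophosphamide (BUCY) minus the change after doxorubicin (DOX), each change being treated piglets minus the untreated piglets of the same experiment. All 22 of the 22 arrays in the series enter it: 5 BUCY treated, 5 BUCY untreated, 6 DOX treated and 6 DOX untreated piglets. The animals were specific-pathogen-free crosses of Large White and Danish Landrace, described as 3 days old without saying whether at treatment or at sampling, and had suckled the sow before they were moved to individual cages. Drugs were given into the jugular vein, DOX as a single dose. Catheters and orogastric tubes were placed under anaesthesia beforehand, and whether the untreated piglets received a vehicle is not stated. The doses, the time between drug and sampling, and the segment of small intestine sampled do not appear in the labels. Each regimen had its own experiment, so drug and experiment cannot be told apart.

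Busulfan and cyclophosphamide are alkylating agents that damage DNA, and are used together before bone marrow transplantation. Doxorubicin traps topoisomerase II on DNA. The intestinal lining renews itself from dividing crypt cells, which makes it a common site of chemotherapy damage, and the villus enterocytes that these crypts supply carry the digestive enzymes, transporters and detoxifying enzymes of the gut.

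Every array carried the RNA of 1 piglet in Cy5 and a pool of all samples in Cy3, so a value is a log2 ratio to the pool. Between 59.7% and 72.5% of probes per array were well above background, and the number of piglets limits the precision. The array at 59.7% was that of BUCY treated piglet 3. It also had the lowest median Cy5 signal, 88 against 103.5 to 210 on the others. The enterocyte markers ANPEP, FABP2 and CDX2 were well above background on all 22 arrays. BUCY treated piglets 2 and 3 stood apart from the other arrays on the first principal component (30.3% of the variance), and the median SD over genes was 0.265 in BUCY treated piglets against 0.158 to 0.188 in the other groups. The tissue is a mixture of cells, so fewer cells of a type and less RNA per cell cannot be told apart in anything that follows. Piglets are the replicates, nothing links them between groups, and litters are not given.

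The contrast between the drug effects passed the threshold (limma, adjusted p under 0.05) for 1345 of 24761 genes, 5.43% of those tested, 710 above 0 (2.87%) and 635 below 0 (2.56%). Of these, 537 differed by over 2-fold and 53 by over 4-fold, against 942 and 74 of all 24761 genes. The BUCY effect was itself past the threshold in 1151 of the 1345 genes and the DOX effect in 54. The backgrounds were 18% and 0.888% of all genes tested. Both effects passed in 16 and neither in 156, against 109 and 20195 of all 24761 genes. The effects had opposite signs in 1145 of the 1345 and in 9914 of all 24761. Choosing genes by this contrast favours opposite signs and large effects, so these counts are partly set by the choice. Both effects passed with opposite signs in 10 genes. The median size of the BUCY effect among the 1345 was 0.67 log2 units and that of the DOX effect 0.21.

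The contrast is the difference between the treated groups (BUCY treated minus DOX treated, the treated difference) less the difference between the untreated groups (BUCY untreated minus DOX untreated, the untreated difference). A gene was placed under untreated levels where the untreated difference made at least 66.7% of its contrast, under treated levels where it made at most 33.3%, and under both in between. By this description untreated levels made the difference in 914 genes (68.0%), treated levels in 166 (12.3%) and both in 265 (19.7%). Over all 24761 genes tested the same division gave 45.0%, 42.9% and 12.1%. The median untreated difference among the 1345 genes was 0.73 log2 units in size and the median treated difference 0.23. The untreated difference passed its own test in 1102 of them (23.1% of all genes tested) and the treated difference in 280 (12.1%). Both differences are parts of the contrast by which the genes were chosen, which favours their passing.

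Whether one side was larger than the other was tested with the sum of both differences, whose estimate is uncorrelated with that of the contrast at these group sizes. Both tests use the same estimate of spread for a gene. Choosing genes by a small p of the contrast therefore also favours the sum passing. The sum passed in favour of the untreated side in 728 of the 1345 genes and in favour of the treated side in 91. Over all 24761 genes tested these counts were 4520 and 3006, together 30.4%. Among those of the 1345 with a contrast above 0 the untreated side was the larger by this test in 439 and the treated side in 18. Among those below 0 the counts were 289 and 73. The BUCY untreated group was the one farthest from the mean of the other 3 in 955 of the 1345 genes (71.0%), the BUCY treated group in 227 (16.9%), the DOX untreated group in 118 (8.77%) and the DOX treated group in 45 (3.35%). Over all genes tested these shares were 32.0%, 36.0%, 19.2% and 12.8%. In 455 genes (33.8%) all 5 BUCY untreated values lay beyond all 17 others, which was so for 2.72% of all genes tested. The 1345 genes were chosen by a contrast that contains these values, which favours groups that lie apart. The shares over all genes are therefore no measure of what that choice alone would give.

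**Figure D1:**
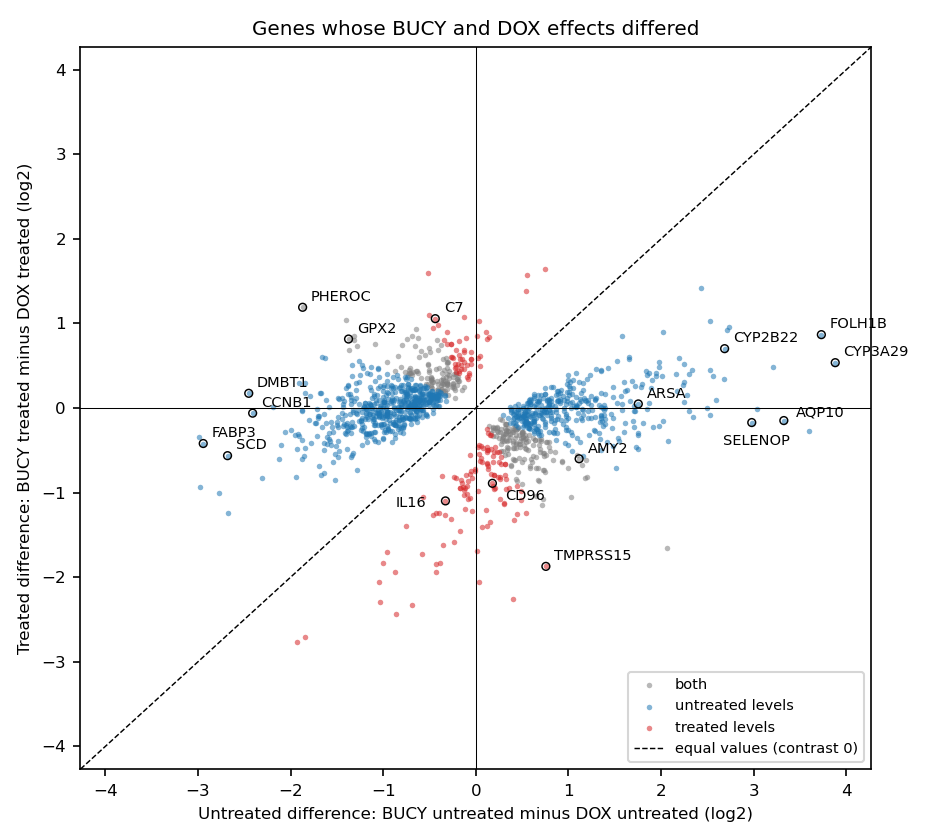
The 1345 genes past the threshold, with the untreated difference on the horizontal and the treated difference on the vertical axis, both in log2 units, coloured by which levels make the contrast. Most points spread along the horizontal axis, where the treated groups were near each other: 914 fall under untreated levels and 166 under treated levels.

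The count of genes depended on the arrays and on the normalisation. Without BUCY treated piglets 2 and 3 it was 658 (432 above and 226 below 0), 73.7% of them under untreated levels. With slide as a fixed block, which takes out BUCY treated piglet 2, it was 935. Leaving out BUCY treated piglet 2, DOX treated piglet 6 or BUCY treated piglet 1 alone gave 836, 868 and 2333. Centring each array on its median in place of the deposited normalisation left 104 genes, 38 above and 66 below 0, and moved the median contrast of all genes to -0.09. Treated differences then passed above 0 in 358 and below 0 in 3055 genes, against 1401 and 1602 with the deposited normalisation, and their medians in the cell cycle, brush border and lysosome lists described further on moved to -0.55, -0.69 and -0.94. Of the 36 named genes past the threshold 9 kept their call, and 1 cell cycle, 1 fat-handling and 0 lysosomal genes passed. Of the 3 scan days, the first and the third held all 4 groups, the third with 1 BUCY treated and 1 BUCY untreated piglet. Within them untreated levels made the difference in 73.8% and 60.9% of the 1345 genes, which were chosen on these same arrays.

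DMBT1, a secreted scavenger-receptor glycoprotein of mucosal defence that the study's title names, had one of the largest contrasts above 0. Its values were -3.02, -3.44, -2.56, -2.35 and -1.64 in BUCY untreated piglets and 1.22, 0.66, -0.16, 0.55 and 0.93 after BUCY. In the DOX experiment they ran from -0.26 (median -0.21) to 0.21 in untreated and from 0.18 (median 0.45) to 0.98 in treated piglets. All 5 BUCY untreated piglets lay below the other 17, while the treated groups overlapped. The BUCY effect was 9.46-fold (adjusted p = 5.65e-07) and the DOX effect 1.53-fold (adjusted p = 0.27), and the contrast was 2.63 (SE 0.35, adjusted p = 0.00050). The untreated difference was -2.45 and the treated difference 0.17, so 93.4% of the contrast lay in the untreated levels.

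SFTPD, surfactant protein D, a lectin that binds microbes and is also named in the title, gave no call. BUCY untreated piglets had -1.25, -1.71, -2.46, -1.90 and -1.63 and BUCY treated piglets 0.55, -1.10, -0.36, 0.09 and 0.64, while DOX untreated piglets ranged from -1.35 (median -0.19) to 0.40 and DOX treated piglets from 0.45 (median 0.66) to 0.95. The BUCY experiment was the lower in both untreated and treated piglets, with differences of -1.43 (adjusted p = 0.0013) and -0.74 (adjusted p = 0.10), and the contrast was 0.69 (95% interval -0.19 to 1.57, adjusted p = 0.40).

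Counts of genes in lists can be read against 5.43% of all genes tested past the threshold, 2.87% above and 2.56% below 0. Of the 30 tested genes of mucosal defence, 1 had a contrast above and 4 below 0, with a median of -0.01 against 0.00 over all genes. Apart from DMBT1 these were ANG, an antimicrobial ribonuclease (-1.64, adjusted p = 0.014), the membrane mucins MUC20 (-1.11, adjusted p = 0.020) and MUC4 (-0.73, adjusted p = 0.047), and the iron-binding protein LTF (-0.89, adjusted p = 0.043); list genes beyond the naming rule, here and in what follows, were chosen after their values were seen. ANG and MUC20 fall under treated levels and rose after DOX, by 1.32 and 1.27, while their BUCY effects were -0.32 and 0.16 and did not pass. MUC4 was well above background on 6 DOX treated arrays and on 2 of the others, so it passed the filter on dim probes through that group alone and nothing is read from its call. LTF falls under untreated levels. REG3G, a lectin that kills Gram-positive bacteria, rose after both drugs, by 4.11 after BUCY and 2.39 after DOX, and its contrast of 1.73 had an adjusted p of 0.11.

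**Figure D2:**
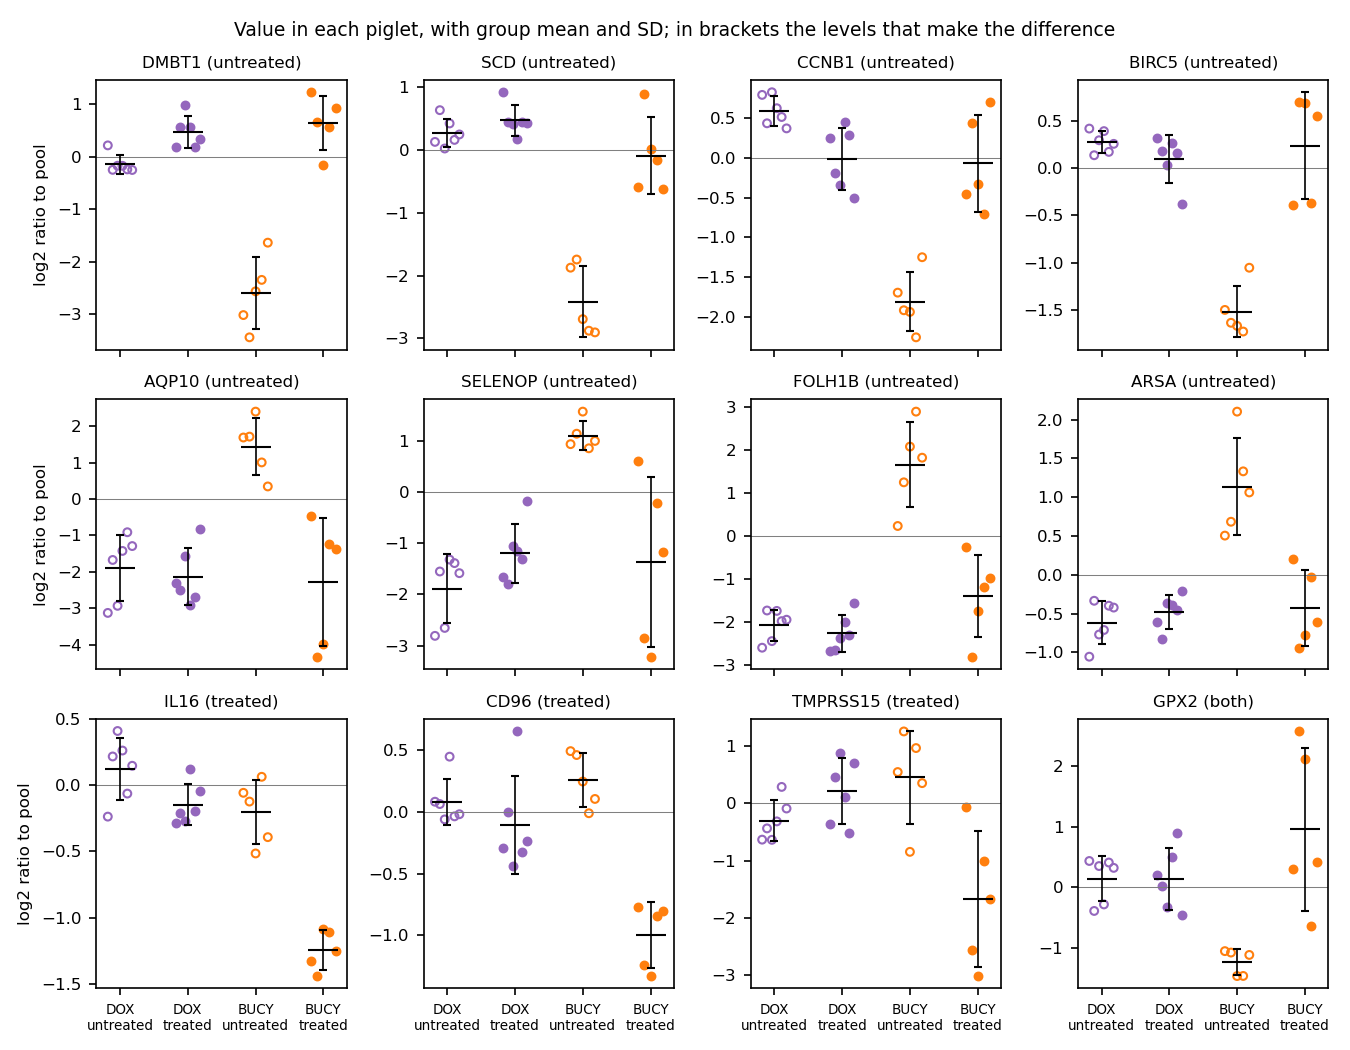
Log2 ratio to the pool in each piglet for 12 genes, by group, with the group mean and SD in black. In the panels of the upper and middle rows the 5 BUCY untreated piglets lie apart from the 17 others; for IL16 and CD96 the 5 BUCY treated piglets do.

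Genes of cell division had contrasts above 0 made by untreated levels. Of 13 tested, 9 were above 0 and 0 below, with a median contrast of 1.11, a median untreated difference of -1.40 and a median treated difference of -0.06. The B-type cyclin CCNB1 had -1.70, -1.92, -1.94, -2.26 and -1.25 in BUCY untreated piglets, -0.46, 0.44, -0.33, -0.70 and 0.71 after BUCY, 0.37 to 0.83 (median 0.57) in DOX untreated and -0.51 to 0.45 (median 0.03) in DOX treated piglets. The BUCY untreated piglets lay below all others and the treated groups overlapped. Its contrast was 2.35 (SE 0.33, adjusted p = 0.00050): a 3.35-fold rise after BUCY against a DOX effect of -0.60 that did not pass (adjusted p = 0.23).

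BIRC5, survivin, which guards chromosome segregation, showed the same separation. It had -1.50, -1.64, -1.67, -1.73 and -1.05 in BUCY untreated and -0.39, 0.70, 0.69, -0.37 and 0.55 in BUCY treated piglets, against 0.14 to 0.42 (median 0.28) and -0.38 to 0.32 (median 0.17) in DOX untreated and treated piglets, with a contrast of 1.94 (adjusted p = 0.00050). The other 7 were the kinases CDK1, AURKA and AURKB, CCNB2, CDC20, CDC25C and the tubulin-binding STMN1, with contrasts from 0.67 to 1.84. CDC25C alone of the 9 falls under both levels. Without BUCY treated piglets 2 and 3, 6 of the 13 passed. In the p53 and apoptosis list (15 tested, 3 above and 1 below 0), MDM2, the p53 ligase, had a contrast of 0.87 and the p53 target CCNG1 -0.75, both under untreated levels; CCNG1 rose after DOX by 0.68 (adjusted p = 0.002) with a BUCY effect of -0.07.

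All 7 of the 42 fat-handling genes past the threshold had contrasts above 0 and fall under untreated levels, with a list median of 0.21. SCD, the desaturase that makes monounsaturated fatty acids, had -1.88, -1.75, -2.69, -2.88 and -2.90 in BUCY untreated piglets and -0.59, 0.88, 0.00, -0.16 and -0.63 after BUCY. DOX untreated piglets ranged from 0.02 (median 0.20) to 0.63 and DOX treated piglets from 0.16 (median 0.43) to 0.91. The BUCY untreated piglets again lay below all others. The contrast was 2.12 (SE 0.34, adjusted p = 0.0019), and the untreated difference was 6.41-fold.

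FABP3, a carrier of fatty acids inside cells, had values of -2.09, -2.30, -3.08, -2.44 and -2.25 in BUCY untreated piglets, all under the lowest other value of -1.18 in BUCY treated piglet 1. The other BUCY treated piglets had 0.83, 0.62, -0.93 and 0.25, DOX untreated piglets 0.28 to 0.98 (median 0.44) and DOX treated piglets -0.33 to 0.74 (median 0.41). Its contrast was 2.52 (adjusted p = 0.0019), with a BUCY effect of 5.10-fold and a DOX effect of -0.17. The lipase LPL (1.77), the lipid-droplet coat protein PLIN2 (1.37), the fatty acid synthase FASN (1.10), the mitochondrial importer CPT1A (1.02) and the citrate lyase ACLY (0.65) completed the 7. For LPL the treated difference also passed, at -1.0 (adjusted p = 0.016), in the direction of the untreated difference of -2.77.

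Chaperones, mitochondrial proteins and 2 biosynthetic enzymes also had contrasts above 0. Of 17 genes of protein folding, 4 had contrasts above 0, all under untreated levels: the endoplasmic reticulum proteins PDIA4 (1.29, adjusted p = 0.0011) and HSP90B1 (1.18), and the mitochondrial chaperonins HSPD1 (1.52) and HSPE1 (1.36). DDIT3, a stress transcription factor, was below 0 (-0.92) under treated levels, having fallen after BUCY by 0.93. Of 13 respiratory chain genes, 6 were above 0 and 0 below (list median 0.41): COX5B (0.58, adjusted p = 0.0030), COX6A1, COX7A2, NDUFB8 and NDUFV2 under untreated levels and UQCRB under both. GMPPB, which makes GDP-mannose for glycosylation, had the smallest p of all genes under untreated levels with a symbol (contrast 1.63, SE 0.19, adjusted p = 0.00020). Its BUCY untreated values of -1.52, -1.86, -1.22, -1.64 and -1.68 lay below -0.63, the lowest of the other 17. NME1, a nucleoside diphosphate kinase, had a contrast of 1.58 (SE 0.22, adjusted p = 0.00050).

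Both drug effects passed with opposite signs in 10 genes, 6 of them under untreated levels and 4 under both. The 5 with a symbol all fall under untreated levels. CYCS, cytochrome c, had -0.73, -0.89, -1.15, -0.63 and -0.71 in BUCY untreated and -0.03, 0.02, -0.53, -0.07 and -0.17 in BUCY treated piglets, a rise of 0.67 (adjusted p = 0.0079). In the DOX experiment it ran from 0.17 (median 0.34) to 0.57 in untreated and from -0.89 (median -0.72) to 0.15 in treated piglets, and it fell by 0.92 (adjusted p = 0.0015). The untreated groups did not overlap, and the contrast was 1.58 (SE 0.22, adjusted p = 0.00050), 74.2% of it in untreated levels. HSPE1, the mitochondrial ATP synthase subunit ATP5G1 and the nucleosome-binding HMGN2 likewise rose after BUCY, by 0.63, 0.54 and 0.52, and fell after DOX, by 0.73, 0.46 and 0.76. RPL13A went the other way, falling after BUCY by 0.39 (adjusted p = 0.045) and rising after DOX by 0.68 (adjusted p = 0.0042). It was the only one of 34 ribosomal protein genes past the threshold (2.94%, against 5.43% of all genes tested).

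**Figure D3:**
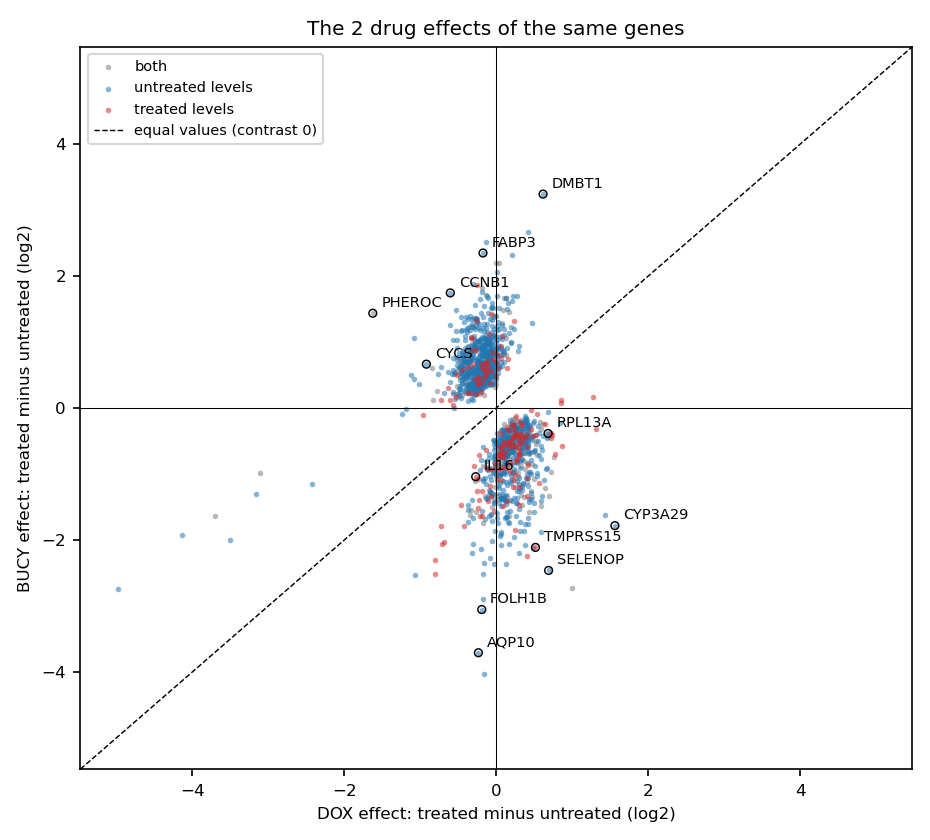
BUCY effect (vertical) against DOX effect (horizontal) of the 1345 genes, in log2 units, coloured by which levels make the contrast. The points form an upper and a lower cloud close to the vertical axis, with a median size of 0.67 for the BUCY effect and 0.21 for the DOX effect. Both effects contain the untreated levels that place the genes.

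All 11 tested brush border genes had a negative contrast (median -1.40, against 0.00 over all genes), and 3 passed: FOLH1B, DPEP1 and TMPRSS15. FOLH1B, annotated as a folate hydrolase, had 0.22, 1.24, 2.07, 2.89 and 1.81 in BUCY untreated and -0.27, -2.82, -1.76, -1.20 and -0.99 in BUCY treated piglets. DOX untreated piglets ranged from -2.61 (median -1.97) to -1.74 and DOX treated from -2.69 (median -2.35) to -1.57. The 5 BUCY untreated piglets were above all others, 13.3-fold above the DOX untreated piglets, and the contrast was -2.86 (SE 0.56, adjusted p = 0.0055).

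DPEP1, a dipeptidase of the brush border, fell by 2.90 after BUCY, with a DOX effect of -0.18 and a contrast of -2.71 (SE 0.62, adjusted p = 0.013). One BUCY treated piglet, at 0.44, reached into the BUCY untreated range of 0.37 to 3.03. With BUCY treated piglets 2 and 3 left out, FOLH1B alone of the 11 passed. The mean of the enterocyte markers ANPEP, FABP2 and CDX2 lay between -1.37 and 0.39 in BUCY treated piglets and between -0.37 and 0.47 in the other 17, 0 of the 3 had a contrast past the threshold, and their part in these results was not tested.

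TMPRSS15, enteropeptidase, which activates trypsinogen in the duodenum, differed from these in falling under treated levels. BUCY treated piglets had -0.06, -2.56, -3.01, -1.01 and -1.67, BUCY untreated 0.54, 1.25, -0.85, 0.96 and 0.35, DOX treated -0.52 to 0.87 (median 0.28) and DOX untreated -0.64 to 0.28 (median -0.38). All BUCY treated piglets but the first lay below every DOX treated piglet. The treated difference was -1.87 (adjusted p = 0.0062), the untreated difference 0.76 (adjusted p = 0.23) and the contrast -2.63 (SE 0.60, adjusted p = 0.013). The sum of both differences had an adjusted p of 0.17, so the treated side was not shown to be the larger. With slide as a fixed block the contrast was -2.38 (adjusted p = 0.083).

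Of 23 transport genes, 3 had contrasts below and 2 above 0 (21.7%, against 5.43% of all genes tested). All 5 fall under untreated levels, and the list median was -0.80. AQP10, a channel for water and glycerol, had the lowest contrast of the named genes. It read 1.69, 1.71, 2.40, 1.0 and 0.34 in BUCY untreated and -0.47, -4.33, -3.97, -1.23 and -1.38 in BUCY treated piglets, against -3.13 to -0.91 (median -1.55) in DOX untreated and -2.90 to -0.81 (median -2.40) in DOX treated piglets. Only the BUCY untreated piglets were above 0, and the lowest BUCY treated values were those of piglets 2 and 3. The contrast was -3.47 (SE 0.87, adjusted p = 0.022), and without those 2 piglets -2.22 (adjusted p = 0.082). With slide as a fixed block AQP10 had an adjusted p of 0.055.

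SLC3A1, the heavy subunit of the transporter of cystine and basic amino acids, had a contrast of -1.85 (adjusted p = 0.015; 0.058 with slide as a fixed block). SLC10A2, the ileal bile acid transporter, was above 0 (1.37, adjusted p = 0.019). It fell after DOX by 1.01 (adjusted p = 0.032), its untreated level was 1.84 lower in the BUCY experiment, and the iron transporter SLC11A2 had 0.68 (adjusted p = 0.049). The segment lists, which hold some of these genes, gave 1 above and 1 below 0 of 5 distal genes (SLC10A2 and CYP27A1) and of 10 proximal genes (SLC11A2 and TMPRSS15). Whether the same segment was taken in both experiments is not given, and its part was not tested.

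The 3 cytochrome P450 genes that passed of 22 drug metabolism genes were all below 0 and under untreated levels. CYP2B22 had 1.45, 1.41, 0.75, 2.31 and 1.46 in BUCY untreated and -0.89, -0.79, -0.74, 0.21 and -0.08 in BUCY treated piglets, and -1.36 to -1.07 (median -1.21) and -1.40 to -0.91 (median -1.15) in DOX untreated and treated piglets. The BUCY untreated piglets stood above all others. The contrast was -1.98 (SE 0.30, adjusted p = 0.00093), and the treated difference of 0.70 (adjusted p = 0.032) had the sign of the untreated difference of 2.69. CYP27A1, which oxidises cholesterol on the way to bile acids, had -1.88 (SE 0.43, adjusted p = 0.013).

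CYP3A29, a pig member of the family that oxidises many drugs, cyclophosphamide among them, had a contrast of -3.34 (SE 0.85, adjusted p = 0.024). BUCY untreated piglets had 1.58, 1.53, 0.29, 1.59 and 0.48 and DOX untreated piglets -4.32 to -1.84 (median -2.54), a 14.7-fold difference. BUCY treated piglets, at 0.29, -1.66, -3.06, 0.90 and 0.08, overlapped DOX treated piglets at -2.86 to 0.10 (median -0.96). Neither drug effect passed on its own, at -1.78 for BUCY (adjusted p = 0.053) and 1.56 for DOX (adjusted p = 0.24). CYP3A genes are close in sequence and can share probe signal. With BUCY treated piglets 2 and 3 left out, CYP2B22 kept its call and CYP27A1 (adjusted p = 0.052) and CYP3A29 (adjusted p = 0.091) did not, and the same held with slide as a fixed block (adjusted p = 0.053 and 0.15).

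Of 26 redox genes, 1 had a contrast above and 3 below 0 (15.4%, against 5.43% of all genes tested). The list median was 0.17, with 15 of 26 estimates above 0. SELENOP, which carries selenium to tissues, had 0.93, 1.13, 1.57, 0.85 and 0.99 in BUCY untreated and 0.61, -2.85, -3.21, -0.21 and -1.17 in BUCY treated piglets, with -2.81 to -1.32 (median -1.57) and -1.80 to -0.18 (median -1.23) in DOX untreated and treated piglets. BUCY untreated piglets were the highest, narrowly above the first BUCY treated piglet, and the contrast was -3.15 (SE 0.72, adjusted p = 0.013), 94.6% of it in untreated levels. Catalase (CAT, -1.50, adjusted p = 0.038) and the ferritin heavy chain FTH1 (-1.40, adjusted p = 0.027) fall under untreated levels too.

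GPX2, the glutathione peroxidase of the gut epithelium, was above 0 at 2.19 (SE 0.57, adjusted p = 0.027) and falls under both levels. BUCY treated piglets had 0.30, 2.58, 2.11, -0.63 and 0.42 and BUCY untreated piglets -1.05, -1.08, -1.47, -1.46 and -1.12, below all others, while the DOX groups, at -0.39 to 0.43 (median 0.33) and -0.46 to 0.89 (median 0.11), overlapped. Piglets 2 and 3 were the highest of the BUCY treated group, and without them the contrast was 1.26 (adjusted p = 0.061). With slide as a fixed block GPX2 had 1.85 (adjusted p = 0.10).

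Lysosomal genes had the largest count below 0 of any list, 7 of 18 and 0 above, with a median of -1.06 and 1 of 18 estimates above 0. The untreated levels made the difference for the sulfatase ARSA, the protease CTSA and the sterol carrier NPC2, both for CTSB and GUSB, and the treated levels for the membrane protein LAMP2. ARSA had 0.51, 0.68, 2.10, 1.33 and 1.06 in BUCY untreated and 0.21, -0.94, -0.78, -0.03 and -0.61 in BUCY treated piglets, against -1.06 to -0.34 (median -0.57) and -0.83 to -0.21 (median -0.42) in the DOX groups. BUCY untreated piglets were above all others, and the contrast was -1.71 (SE 0.34, adjusted p = 0.0056). LAMP2 had a contrast of -1.74 and NPC2 of -1.11, with CTSA, CTSB and GUSB between them. When BUCY treated piglets 2 and 3 were left out, 3 of the 18 passed.

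Genes of T and NK cells differed on the treated side: 4 of 29 contrasts were below 0 and 0 above, and all 4 fall under treated levels. The treated difference was past the threshold and negative in 20 of the 29 genes (6.47% of all genes tested) and the untreated difference in 8 (10.9%), with medians of -0.67 and -0.29. CD96, a receptor on T and NK cells, had -0.77, -1.24, -1.33, -0.84 and -0.80 after BUCY and 0.49, 0.46, 0.25, -0.01 and 0.11 in BUCY untreated piglets. In the DOX experiment it ran from -0.06 (median 0.02) to 0.45 in untreated and from -0.44 (median -0.26) to 0.66 in treated piglets. BUCY treated piglets lay below the other 17. The contrast was -1.07 (SE 0.23, adjusted p = 0.010) and the untreated difference 0.18.

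The chemokine CCL5 (-1.51, adjusted p = 0.017), granzyme A (GZMA, -1.71, adjusted p = 0.033) and the transcription factor GATA3 (-0.85, adjusted p = 0.017) were the other 3. CCL5 and GZMA fell after BUCY by 2.31 and 2.51, and their DOX effects of -0.80 each did not pass. CD8A fell by 1.02 after BUCY and by 0.97 after DOX, and its contrast was -0.05 (95% interval -0.50 to 0.40). The mean of 7 measured T and NK markers lay between -1.54 and -1.23 in BUCY treated piglets, between -0.73 and 0.24 in DOX treated piglets and between -0.34 and 0.71 in the untreated groups. Of these 7 markers 1, GZMA, had a contrast past the threshold, and their part in these results was not tested. Without BUCY treated piglets 2 and 3, 2 of the 29 genes passed, and CD96 had an adjusted p of 0.052. With slide as a fixed block 1 of the 29 contrasts passed, below 0, CD96 had -0.79 (adjusted p = 0.081), and the treated difference was past the threshold and negative in 4 genes in place of 20.

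Of 36 cytokine and adhesion genes, 3 were below and 1 above 0, all 4 under treated levels (11.1%, against 5.43% of all genes tested). The list as a whole leaned above 0, with a median contrast of 0.25 and 24 of 36 estimates above 0. With each array left out in turn its count ran from 1 to 7. IL16, a chemoattractant of CD4+ cells, had -1.33, -1.44, -1.08, -1.11 and -1.25 after BUCY, below the lowest other value of -0.52. BUCY untreated piglets had -0.06, -0.12, -0.52, 0.06 and -0.39, DOX untreated -0.24 to 0.41 (median 0.18) and DOX treated -0.29 to 0.12 (median -0.20). The BUCY effect was -1.04 and the DOX effect -0.27, and the contrast -0.77 (SE 0.17, adjusted p = 0.011). Its treated difference of -1.10 was the larger side by the sum of both differences (adjusted p = 2.81e-06). With slide as a fixed block the contrast was -0.53 (adjusted p = 0.069). CXCL16 (-1.42, adjusted p = 0.04999) and IL18 (-1.44, adjusted p = 0.032) were also lower and SELP, P-selectin of platelets and endothelium, higher (1.20, adjusted p = 0.032).

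MHC class II genes, which present antigen to CD4+ T cells, had negative contrasts in all 9 tested (median -1.04), with a median treated difference of -0.56 and a median untreated difference of 0.33. SLA-DRA (-1.44, adjusted p = 0.030) and SLA-DQA1 (-1.17, adjusted p = 0.039) fall under treated levels and SLA-DQB1 (-1.19, adjusted p = 0.045) under both. SLA-DRA read -1.14, -2.37, -2.00, -0.60 and -0.87 in BUCY treated and 0.41, 0.57, -0.16, 0.29 and 0.06 in BUCY untreated piglets, against -0.67 to 0.31 (median -0.05) in DOX untreated and -0.78 to 0.49 (median -0.34) in DOX treated piglets, with which it overlapped. Without BUCY treated piglets 2 and 3 SLA-DRA had -0.92 (adjusted p = 0.12) and 0 of the 9 passed; with slide as a fixed block it had -0.86 (adjusted p = 0.21) and again 0 passed. The sum of both differences of SLA-DRA had an adjusted p of 0.11. Genes of this family are close in sequence and can share signal. IFI30, a lysosomal reductase that prepares antigen for class II, had -0.53, -1.09, -0.93, -0.80 and -0.57 after BUCY, below all others. Its contrast of -0.99 (SE 0.21, adjusted p = 0.0086) lay in the treated difference of -1.07, with an untreated difference of -0.09.

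Single genes of other lists also fall under treated levels. Complement C7, part of the membrane attack complex, had a contrast of 1.49 (SE 0.39, adjusted p = 0.026) and BUCY treated values of 0.20, 1.90, 2.12, 1.13 and 0.57, which overlapped DOX treated piglets at -0.48 to 0.71 (median 0.13). The kinase SRPK3 had 1.41 (SE 0.30, adjusted p = 0.0087) and the fibrillar collagen COL5A1 0.93 (SE 0.25, adjusted p = 0.029), with neither drug effect of COL5A1 past the threshold (0.30 and -0.63). KLF4, a transcription factor of differentiated epithelium, was the only one of 12 genes of goblet cells, crypt and differentiation to pass (-0.98, SE 0.25, adjusted p = 0.022). The mean of 3 endothelial markers was 0.32 to 1.08 in BUCY treated piglets and -0.48 to 0.39 in the others, and that of 3 smooth muscle markers 0.20 to 1.41 and -1.27 to 0.78; their part in these results was not tested. By the sum of both differences the treated side was the larger for COL5A1 (adjusted p = 0.031) and was not shown to be for C7, SRPK3 and KLF4 (adjusted p = 0.24, 0.24 and 0.30), whose placing changed in 7, 7 and 6 of 13 other settings. C7, COL5A1 and KLF4 lost their calls without BUCY treated piglets 2 and 3 (adjusted p = 0.098, 0.10 and 0.051) and with slide as a fixed block (adjusted p = 0.12, 0.13 and 0.14).

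The remaining named genes fall under both levels by their share. AMY2, an amylase, had a contrast of -1.72 (SE 0.27, adjusted p = 0.0014). Its untreated difference of 1.12 (adjusted p = 0.00019) and treated difference of -0.60 (adjusted p = 0.044) had opposite signs, with BUCY untreated piglets at 0.17, 0.70, 0.72, 0.88 and 0.40 above all DOX untreated piglets (-1.09 to -0.07, median -0.50), and BUCY treated piglets at -0.65, -0.77, -1.12, -0.40 and -0.50 overlapping DOX treated piglets (-0.55 to 0.23, median 0.03). FLRT3, an adhesion protein, had -1.69 (SE 0.32, adjusted p = 0.0047) and MRPL24, of the mitochondrial ribosome, 0.76 (SE 0.15, adjusted p = 0.0054). Both differences passed for FLRT3 (untreated 0.65, adjusted p = 0.045, treated -1.04, adjusted p = 0.0048). For MRPL24 the untreated difference passed (-0.49, adjusted p = 0.0018) and the treated difference did not (0.27, adjusted p = 0.086). PHEROC, annotated as a pheromaxein subunit, had the highest contrast of the named genes, 3.06 (SE 0.79, adjusted p = 0.026). BUCY treated values were 0.87, 1.88, -1.90, -0.47 and 1.0 and DOX treated values -2.01 to 0.86 (median -1.05), and neither drug effect passed. Its untreated difference passed (-1.87, adjusted p = 0.019) and its treated difference did not (1.19, adjusted p = 0.16).

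**Figure D4:**
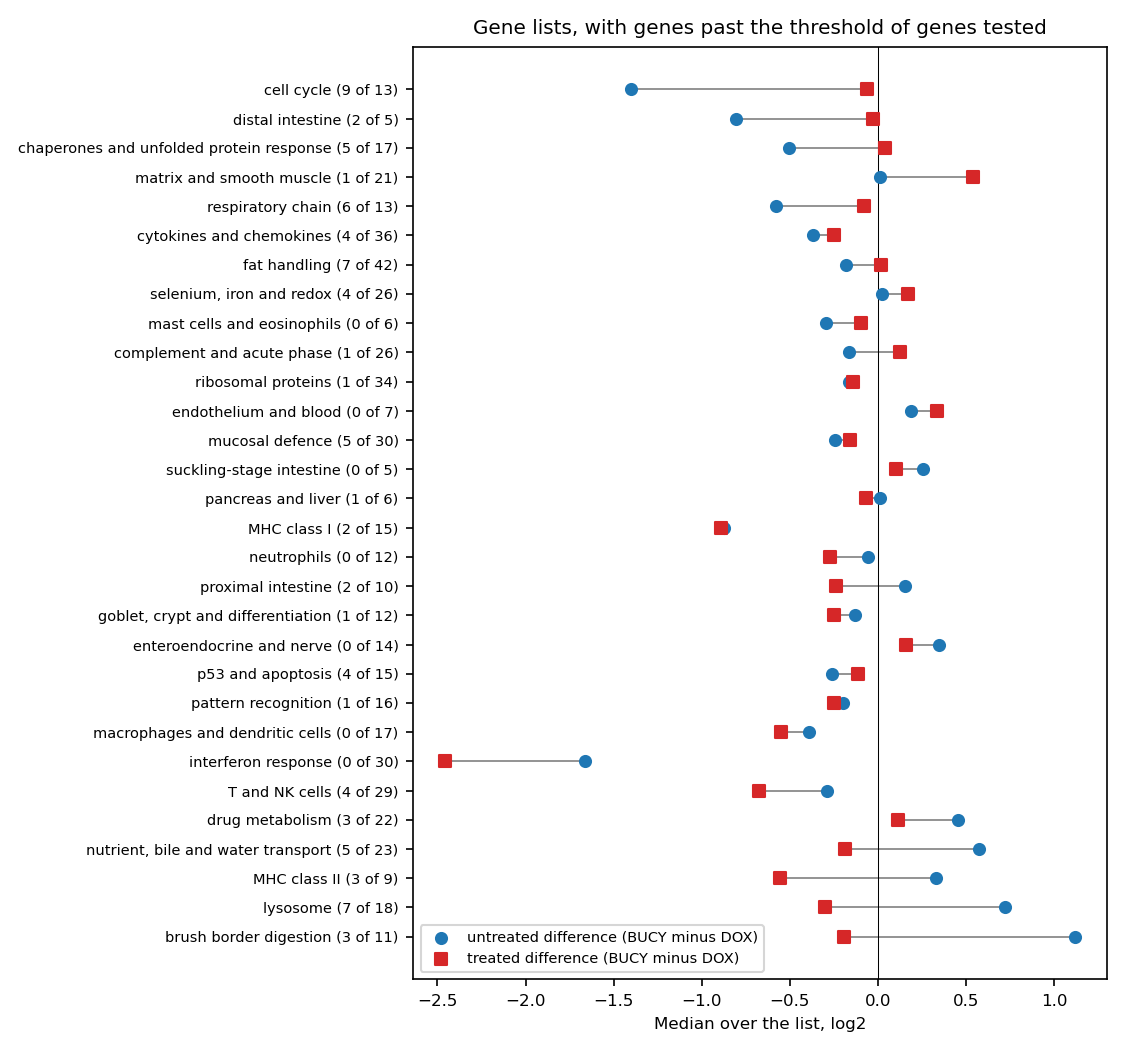
Median untreated difference (circles) and treated difference (squares) of each gene list with at least 5 tested genes, in log2 units, with the number of genes whose contrast passed. The cell cycle, lysosome and brush border lists have untreated medians farther from 0 than their treated medians, and in the interferon list both medians lie on the same side, at -1.66 and -2.46.

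The interferon response list shows a difference between the experiments, in treated and untreated piglets alike, that is smaller in the contrast. Of its 30 genes the treated difference was past the threshold and negative in 26 and the untreated difference in 24, while 0 had a contrast past it and 7 an unadjusted p under 0.05, as 19.4% of all genes tested had. The median contrast of the list was -0.28, with 8 of 30 estimates above 0. The BUCY effect passed below 0 in 7 of the 30 (2292 of all 24761 genes) and the DOX effect in 0 (128). MX2, an antiviral GTPase, had an untreated difference of -4.11 and a treated difference of -4.10, and its contrast was 0.01 (95% interval -0.68 to 0.69). In the MHC class I list both differences were negative as well (11 of 15 genes each, medians -0.87 and -0.89). There the proteasome activators PSME2 (0.87, adjusted p = 0.022) and PSME3 (1.01, adjusted p = 0.027) were above 0 under untreated levels. For PSME2 the treated difference of -0.80 (adjusted p = 0.0018) was also negative, smaller than the untreated difference of -1.67.

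In 7 lists besides the interferon list 0 genes passed limma's test, and the numbers at an unadjusted p under 0.05 can be read against 4809 of all 24761 genes tested (19.4%): B and plasma cells (3 of 4 at an unadjusted p under 0.05), macrophages and dendritic cells (0 of 17), neutrophils (3 of 12), mast cells and eosinophils (1 of 6), endothelium and blood (2 of 7), enteroendocrine cells and nerve (3 of 14) and the suckling-stage intestine (1 of 5). The pattern recognition list gave TLR8, a sensor of RNA (0.55, adjusted p = 0.016), of 16 tested, and TLR8 was well above background on only 2 BUCY untreated and 1 BUCY treated arrays.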

How the data were processed

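The analysis starts from the authors' deposited table of log2 ratios, Cy5 (the piglet) over Cy3 (the pool). Per the submitters' processing notes Agilent Feature Extraction and limma were used, without a statement of the normalisation. Per the file headers the deposited scanner files come from Agilent Feature Extraction 10.7.3.1 and hold spot and background intensity in both colours, a log10 ratio of Cy5 to Cy3 and quality flags of 0 or 1. Scale and direction of the table were checked by setting each array, over 43603 probes, against its intensities after normexp correction, loess and quantile normalisation (lowest r 0.995, slopes 0.993 to 1.01); array medians of the table ran from 0.00146 to 0.0180. No array has the dyes reversed, so a probe's dye effect cancels in differences between groups.

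Array accessions matched RefSeq genes of pig (Sscrofa11.1) for 6599 of 43603 probes (15.1%, 2971 symbols), and other probes keep the array's identifier. Each symbol or identifier, here called a gene, was represented by its brightest probe and tested where at least 5 arrays had it well above background in Cy5, a total of 24761, 2619 of them with a symbol. limma 3.58.1 in R 4.3.3 fitted 1 model with 4 group means to all 22 arrays (18 residual and 3.52 prior degrees of freedom, two-sided, Benjamini-Hochberg over all genes, threshold 0.05). The same model gave the drug effects, the treated and untreated differences and their sum, and was tested on simulated data. Confidence intervals are at 95%. Of the named genes 24 have other probes, and 89 of those 90 probes share the sign of the contrast. The exception is a probe of SRPK3. Sizes could differ: other probes ran from -1.04 to -0.079 for KLF4, 0.29 to 0.43 for COL5A1 and 0.91 to 2.13 for SCD. Those of FABP3 ran from 2.47 to 2.51. With the mean of all probes of a gene COL5A1 lost its call, and MRPL24 and KLF4 changed their placing.

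The rule names SFTPD and DMBT1 and, among genes with a symbol past the threshold and well above background on most arrays, or an even split of them, in each group, the 6 highest and 6 lowest contrasts, the 4 of smallest p under each kind of levels, and the gene of smallest p of each of 31 lists. This gave 37 genes, 36 past the threshold. A few genes that the rule or a list count includes are not reported here. The comparison, the lists and the rule were chosen with earlier results of these data known. Lists are described by counts and medians without a test of the list. The alternatives changed the source and normalisation of the values, the use of Cy3, the dim-probe filter, the choice of probe, slide and scan day as blocks, array weights and the arrays included. Plots were made with matplotlib 3.10.9 (Python 3.11.15). No probe, promoter or protein sequences were used here.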

Additional observations from a re-analysis of the deposited data

Results flagged for a closer look

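The named genes past the threshold are those whose BUCY and DOX effects differed by the test of the contrast itself, and their contrasts in log2 units are collected here. Above 0 and under untreated levels were DMBT1 (2.63), FABP3 (2.52), CCNB1 (2.35), SCD (2.12), BIRC5 (1.94), GMPPB (1.63), CYCS (1.58), NME1 (1.58), PDIA4 (1.29), PSME2 (0.87) and COX5B (0.58). Above 0 and under treated levels were C7 (1.49), SRPK3 (1.41) and COL5A1 (0.93), and under both PHEROC (3.06), GPX2 (2.19) and MRPL24 (0.76).

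Below 0 and under untreated levels were AQP10 (-3.47), CYP3A29 (-3.34), SELENOP (-3.15), FOLH1B (-2.86), DPEP1 (-2.71), CYP2B22 (-1.98), CYP27A1 (-1.88), SLC3A1 (-1.85), ARSA (-1.71) and RPL13A (-1.07). Below 0 and under treated levels were TMPRSS15 (-2.63), SLA-DRA (-1.44), CD96 (-1.07), IFI30 (-0.99), KLF4 (-0.98) and IL16 (-0.77), and under both AMY2 (-1.72) and FLRT3 (-1.69).

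Single piglets stood far from the rest of their group in 10 of 144 sets of values (6.94%), and chance sets apart about 1 in 20 such groups. In DOX untreated piglets these were DMBT1 in piglet 1 (0.21), NME1 in piglet 2 (0.025), MRPL24 in piglet 2 (0.058), CD96 and KLF4 in piglet 4 (0.45 and 0.27) and PDIA4 in piglet 1 (1.02). PDIA4 was also set apart in DOX treated piglet 6 (-0.31). In the BUCY experiment they were DPEP1 in treated piglet 4 (0.44), and SLC3A1 and COL5A1 in treated piglet 3 (-2.35 and 1.03).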

How the results depend on the processing

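Numbers of genes past the threshold are given for the contrast (1345), the treated difference (3003), the sum of both differences (7526), the BUCY effect (4455) and the DOX effect (220). Median centring left 104 for the contrast and 89 for the DOX effect, and the contrast of COX5B turned to -0.026 (adjusted p = 0.98). Cy5 alone gave 748 and 134. Requiring all arrays above background gave 122 for the DOX effect. Slide as a fixed block, which takes out BUCY treated piglet 2, the only array of its slide, gave 935 each for the contrast and the treated difference, 3291 for the sum and 2284 for the BUCY effect. Leaving out the 6 arrays whose title carries a suffix gave 309 for the contrast, 1273 for the treated difference and 1426 for the BUCY effect. The suffix arrays lie mostly in the BUCY experiment, and no DOX untreated array is among them. Leaving out BUCY treated piglets 2 and 3 gave 658, 1687 and 1137, with 489 for the DOX effect. Array weights gave 1454 for the treated difference and 1093 for the DOX effect. With each array left out in turn the contrast ran from 836 to 2333, the treated difference from 1994 to 5191, the BUCY effect from 2317 to 6636 and the DOX effect from 120 to 305. The causes were not tested beyond the loss of arrays. The share of genes under untreated levels ran from 64.1% to 73.7% over the settings other than single arrays and from 52.3% to 72.8% over those, and the share under treated levels from 10.1% to 15.5% and from 9.03% to 20.4%. Of the 36 named genes past the threshold, 9 kept their call under median centring, 31 with Cy5 alone, 24 with slide as a fixed block, 20 without the suffix arrays and 25 without BUCY treated piglets 2 and 3. With single arrays left out, calls were lost for SLA-DRA and COL5A1 (5 settings each), PHEROC (3), GPX2 (2), CYP3A29 and C7 (1 each). The placing under untreated, treated or both levels changed most often, over 13 settings other than single arrays and 22 with 1 array left out, for SRPK3 (7 and 9), C7 (7 and 2), GPX2 (6 and 2), KLF4 (6 and 6), MRPL24 (5 and 3), AMY2 (4 and 6), TMPRSS15 (2 and 1) and SLA-DRA (2 and 0). No paired analysis was possible because the labels carry no replicate numbers and link no piglet of one group to a piglet of another.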
